A study of Mus musculus with 18 samples.

Results

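Autophagy is the route by which a cell encloses part of its own cytoplasm in a double membrane, the autophagosome, and delivers it to the lysosome for digestion. A kinase complex around ULK1 or ULK2 starts the process, a lipid kinase complex around Beclin 1 marks the membrane, and conjugation enzymes attach proteins of the Atg8 family (LC3 and GABARAP) to the growing membrane. Cargo receptors link what is to be digested to these proteins, and lysosomal hydrolases degrade it. In liver the pathway is known for supplying amino acids, glucose and lipid fuel during fasting, and much of its short-term control acts on proteins and not on transcripts.

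The genes described here are 45 mouse autophagy and lysosome genes, taken as a list by name out of 23532 genes in the deposited table. Membership uses no measured value, though the list was drawn up with earlier results of these data known. They comprise 5 genes of the initiation kinase complex, 5 of the Beclin 1 lipid kinase complex, 5 that supply or mark membrane, 10 conjugation genes, 5 of the Atg8 family, 4 cargo receptors, 4 regulators and 7 lysosomal genes. Each gene was represented by its most abundant RefSeq transcript, and 34 of the 45 had a single one. All 45 passed the filter of at least 1 RPKM in at least 3 libraries, and so belonged to the 10356 genes tested.

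The measurement was polyA RNA-seq of whole liver in 18 libraries, 3 for each of 6 groups, all from C57BL/6J mice labelled wild type. The groups were the LF diet alone (LF), with CR (LF+CR) or with Ex (LF+Ex), and the HF diet alone (HF), with CR (HF+CR) or with Ex (HF+Ex). Treatments ran from an age of 5 weeks until livers were collected at 62 weeks. The labels give only these abbreviations, read here as low-fat diet (LF), high-fat diet (HF), caloric restriction (CR) and exercise (Ex). They state neither sex nor whether a library is 1 animal, so p-values measure the spread between these samples only.

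Levels are RPKM, read numbers scaled to the length of the transcript and the size of the library. The files give no counts, and the depth behind each value is unknown. Sums of RPKM ran from 512495 to 589042 per library, and 9069 to 9997 genes reached 1 RPKM. Of 10 hepatocyte markers 9 were high in every library, such as Hnf4a at 103 to 193 RPKM, while Alb was listed at 0 in 14 of 18 libraries. The libraries with Alb values were HF 1 and all 3 of HF+Ex, at 30395 to 33218 RPKM. The cause was not tested. Pancreatic enzyme transcripts stood out in LF+CR 1, HF+CR 1 and LF+Ex 1 (called the pancreas libraries here), with summed levels of 2081, 344 and 38.8 RPKM. HF+CR 2, at 38.6 RPKM, was not set apart by this name, and the other 14 libraries were at 5.01 to 12.7 RPKM. Bile duct markers were highest in HF+CR 3 (167 RPKM) and LF 2 (148 RPKM), called the bile duct libraries here, against 15.5 to 74.6 RPKM in the other 16. In whole liver, fewer cells of a type and less RNA per cell cannot be told apart.

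Sequence before a transcription start is shown first for called genes, because 4 genes fell under CR on the LF diet. The runs are from RefSeq windows on GRCm38.p6, on the gene's own strand, with a searched motif in capitals and positions counted from 1 listed start. For Gabarapl1 the run ends before the first GENCODE exon of the gene and holds the forkhead letters TAAACA from base -94. For Ulk2 the cyclic-AMP-response-like letters TGACGT, from base -17, are shown with 10 bases on each side.
Gabarapl1 (chr6:129532942-129533159, plus strand): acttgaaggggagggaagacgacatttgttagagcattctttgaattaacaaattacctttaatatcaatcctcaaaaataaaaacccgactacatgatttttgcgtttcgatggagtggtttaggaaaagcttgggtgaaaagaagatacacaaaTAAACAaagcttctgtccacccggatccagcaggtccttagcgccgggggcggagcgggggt
Ulk2 (chr11:61855094-61855119, minus strand): caagacgcgcTGACGTcgcacagggc
The listed start of Gabarapl1 is the first base of the gene in RefSeq. Those of Ulk2 and Optn lie 242 and 282 bases inside the RefSeq gene spans, so their windows are within the span of a longer form and not upstream of every start. No GENCODE exon of either gene overlaps the 250 bases before these starts. The 250 bases before the Optn start hold none of the 4 motifs searched. A match here is a run of letters and not a measured binding site.

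The second set of sequences is shown because TFEB and TFE3, regulators on the list, are known to bind E-boxes in promoters of lysosomal genes. The E-box CACGTG, which reads the same on both strands, was searched in windows of 300 bases, 250 before and 50 after each listed start. Of the 45 genes 38 had such a window, and 9 of these (23.7%) held the E-box, against 8.09% of all 27025 genes with a window. The longer form GTCACGTG, on either strand, was in 6 of the 38 (15.8%) against 2.55% of all genes, and every match to it is also an E-box match. TAAACA and TGACGT, searched on both strands, were each in 6 of 38 (15.8%), against 15.1% and 8.37% of all genes. Shown are 3 lysosomal promoters and that of Atg7, the remaining gene that fell under CR, with the E-box in capitals and 10 bases on each side.
Lamp1 (chr8:13159123-13159148, plus strand): tgccgactggCACGTGaccacatcac
Ctsd (chr7:142387910-142387935, minus strand): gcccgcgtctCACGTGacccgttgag
Mcoln1 (chr8:3500464-3500489, plus strand): gcgccccgctCACGTGaccgcggcgc
Atg7 (chr6:114670954-114670979, plus strand): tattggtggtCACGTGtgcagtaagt
Lamp1 held 4 E-boxes in its window, and Ctsd and Mcoln1 held 2 each. The Atg7 match lies before an alternative start inside the gene. With all 18 libraries, Atg7 was the 1 gene called in any comparison among the 9 that held the E-box. Lamp1, Ctsd, Mcoln1, Atg3, Atg5, Atg14, Bnip3 and Ctsl were not called. Whether the E-box bears on a call was not tested.

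The 45 genes covered a wide range of levels per transcript length. Lysosomal genes led: averaged over the 18 libraries, Lamp1, the main lysosomal membrane glycoprotein, was at 365 RPKM, Ctsd, an aspartic protease, at 278 RPKM and Ctsl, a cysteine protease, at 243 RPKM. Gabarapl1, an Atg8 protein, followed at 229.6 RPKM and Sqstm1, the cargo receptor p62, at 223 RPKM. At the other end were Atg4c, a protease that processes Atg8 proteins, at 1.54 RPKM, Atg10, the enzyme that joins Atg12 to Atg5, at 1.78 RPKM, and Sesn2, a stress-induced inhibitor of mTORC1, at 2.16 RPKM. The Atg4c value is that of 1 of its 2 RefSeq transcripts, which held 72.8% of the summed level, with the other at 0.576 RPKM. The median of the 45 was 12.8 RPKM, against 6.03 RPKM over all tested genes.

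The groups differed little. The median range of group means over the 45 genes was 0.39 on the log2(RPKM + 1) scale, against 0.45 over all tested genes, and the median SD between libraries of 1 group was 0.17 against 0.19. Becn1, which encodes Beclin 1, had the narrowest range of group means, 0.17. Map1lc3a, an LC3 protein, had the widest, 1.11. Optn, the receptor optineurin, had the smallest SD within groups (0.08) and Tfeb the largest (0.49). The Tfeb value is that of 1 of its 3 RefSeq transcripts.

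**Figure D1:**
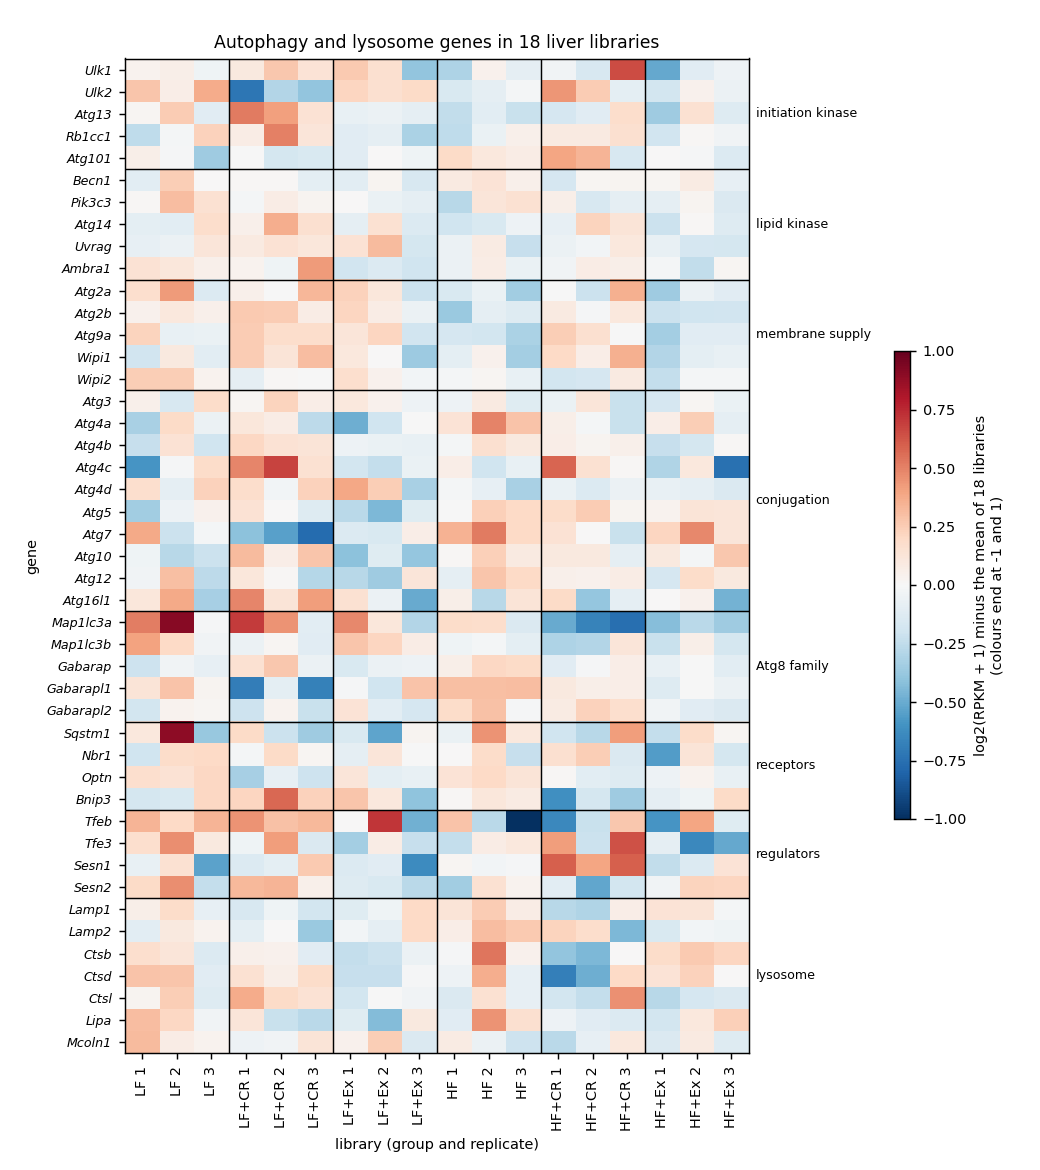
Level of each of the 45 genes (vertical axis, by role) in each of the 18 libraries (horizontal axis), as log2(RPKM + 1) minus the gene's mean over the 18 libraries, with colours that end at -1 and 1. Ulk2, Atg7 and Gabarapl1 are blue in the 3 LF+CR libraries, and Map1lc3a is blue in the 3 HF+CR and the 3 HF+Ex libraries.

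CR on the LF diet was compared with LF alone to ask what CR changed without the HF diet. Of the 45 genes 4 fell and 0 rose: Ulk2, Gabarapl1, Atg7 and Optn. Over all tested genes limma called 6.5% in this comparison, 3.49% lower and 3.01% higher, so the 4 of 45 (8.89%) lie near the share in the whole table. The 4 genes come from different parts of the list: initiation kinase complex, Atg8 family, conjugation and cargo receptors. Atg7 and Gabarapl1 both take part in conjugation. At an unadjusted p under 0.05 there were 11 of the 45, 7 higher and 4 lower, against 22.4% of all genes. Groups did not overlap for 4 genes that were higher in LF+CR, against 11.6% of all genes, and for 5 that were lower, against 11.7%. Differences of the 45 genes were spread about 0, with 24 above and 21 below and a median of 0.02, against 0.00 (0.000453) for all genes.

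Ulk2, an initiating kinase closely related to Ulk1, was at 13.6, 11.6 and 14.6 RPKM in the LF libraries. In LF+CR it was at 6.27, 8.78 and 8.15 RPKM. The highest LF+CR library was thus below the lowest LF library. The log2 difference from limma was -0.71 ± 0.14 (SE, adjusted p = 0.00723), with a 95% interval of -1.002 to -0.42. Ulk1, the main initiating kinase, was at 18.3 ± 0.666 RPKM in LF and 20.4 ± 1.38 RPKM in LF+CR (SD, n = 3), a log2 difference of 0.15 with an interval of -0.28 to 0.58.

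Atg7, the activating enzyme that both conjugation reactions need, was at 12.8, 8.12 and 9.42 RPKM in LF. In LF+CR the 3 libraries were at 6.97, 6.24 and 5.21 RPKM. The groups did not overlap, but LF 1 stood above the other LF libraries. The log2 difference was -0.62 ± 0.16 (limma, adjusted p = 0.0304). Most other conjugation genes did not follow: 8 of the 10 had differences above 0 and none of these was called with all libraries. Atg4b, a protease that processes Atg8 proteins, was called higher without LF 2, at 0.38 (limma, adjusted p = 0.0328), and likewise without the bile duct libraries (limma, adjusted p = 0.0330). The smallest p among those 8 belonged to Atg10, at 1.44 ± 0.205 RPKM in LF and 2.22 ± 0.285 RPKM in LF+CR, a log2 difference of 0.40 (limma, adjusted p = 0.0638).

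Gabarapl1 was at 247, 275 and 229.8 RPKM in LF. In LF+CR it was at 139.6, 210.2 and 141 RPKM, with LF+CR 2 well above the other 2 LF+CR libraries and still below every LF library. Its log2 difference was -0.63 ± 0.15 (limma, adjusted p = 0.0191). Gabarap, its closest relative on the list, was at 169 ± 10.3 RPKM in LF and 199 ± 22.6 RPKM in LF+CR, a difference of 0.23 that was not called. Map1lc3b, the LC3 form most used as an autophagosome marker, was at 116, 100.3 and 85.1 RPKM in LF and 83.7, 88.6 and 80.8 RPKM in LF+CR. These ranges overlap, and the log2 difference was -0.24 with an interval of -0.51 to 0.04. Proteins of this family are related in sequence, and how reads shared between their transcripts were assigned is not given in the sources used here. An antisense gene, 1700101I11Rik, overlaps the start of Gabarapl1 and is listed at 0 in all 18 libraries. Whether strand was used in counting is not given, so reads from it and from Gabarapl1 cannot be told apart.

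Optn, a receptor for ubiquitin-tagged cargo that also acts in mitophagy, had the smallest SD within groups, as given above. It was at 49.0, 48.3 and 50.6 RPKM in LF and at 34.5, 41.0 and 37.6 RPKM in LF+CR. The 2 groups are clearly separated. The log2 difference was -0.38 ± 0.09 (limma, adjusted p = 0.0190). Sqstm1 was at 234, 404 and 167 RPKM in LF and 248, 187 and 169 RPKM in LF+CR, where the LF spread rests on LF 2, a bile duct library. The difference for Sqstm1 was -0.34 (limma, adjusted p = 0.505) and came to 0.0061 without LF 2.

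The 4 calls did not all last when libraries were left out. Without the pancreas libraries, a setting chosen after seeing the data, Ulk2 alone was called, and the total over all genes fell from 673 to 215. With only the 6 libraries of LF and LF+CR in the fit none was called, the adjusted p of Ulk2 being 0.0675, and all genes called came to 200. Left out singly, LF 1 ended the calls of Atg7, Gabarapl1 and Optn, LF+CR 1 those of Gabarapl1 and Optn, LF+CR 3 those of Atg7 and Gabarapl1, LF+CR 2 that of Atg7 and LF 2 that of Gabarapl1. Over the 27 settings the adjusted p from limma ran from 0.0133 to 0.140 for Atg7, from 0.00305 to 0.138 for Gabarapl1 and from 0.0100 to 0.149 for Optn. All 3 genes kept differences below 0 throughout, the nearest to 0 being -0.46, -0.53 and -0.32 in the same order.

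**Figure D2:**
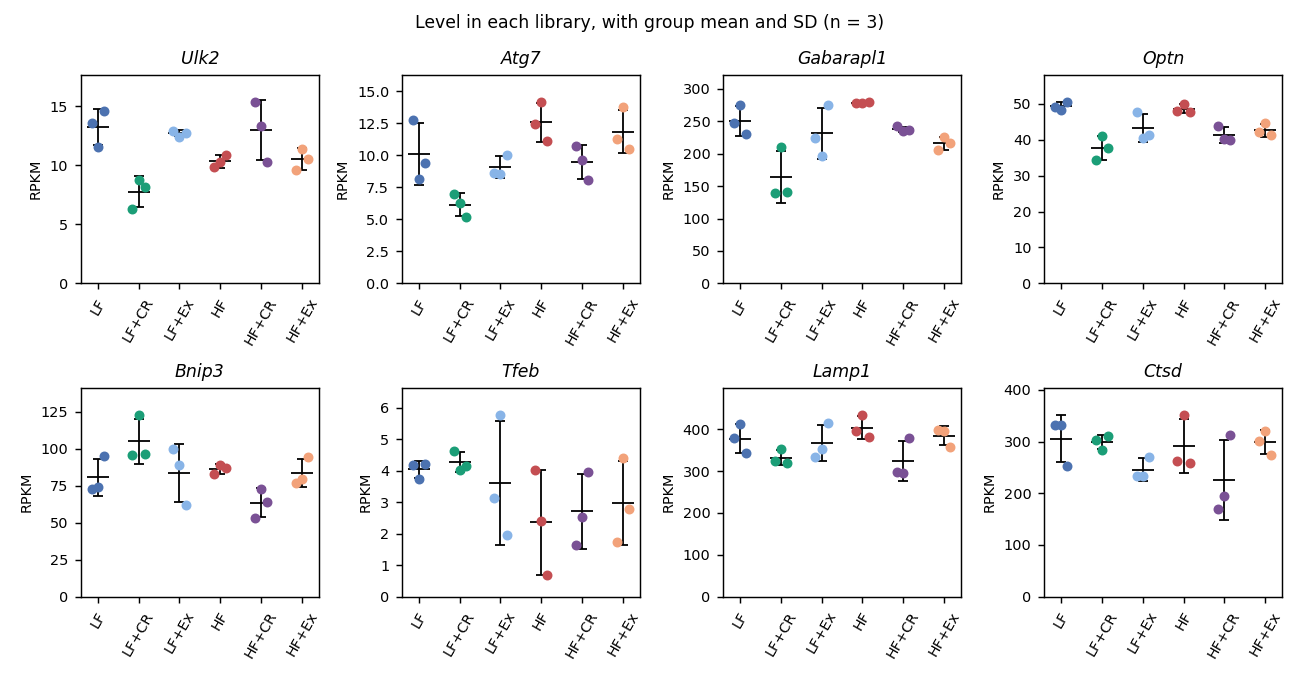
RPKM (vertical axes, from 0) of 8 of the genes in each library by group (horizontal axes), with the group mean and SD (n = 3). Ulk2, Atg7, Gabarapl1 and Optn sit lower in all LF+CR libraries than in any LF library, and 1 HF+CR library of Ctsd, at 313 RPKM, stands above the others at 169 and 195 RPKM.

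CR on the HF diet was compared with HF alone. None of the 45 genes was called, while limma called 1.4% of all tested genes. At an unadjusted p under 0.05 there were 11 of the 45 (24.4%), against 14% of all genes. Groups did not overlap for 5 genes that were higher in HF+CR, against 10.7% of all genes, and for 8 that were lower, against 8.29%. The median difference was -0.03, against 0.01 (0.00875) for all genes.

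The 4 genes with the smallest p are given as values only. Ctsb, a cysteine protease of the lysosome, was at 145, 212 and 151 RPKM in HF and 111, 107 and 146 RPKM in HF+CR, with a log2 difference of -0.47 (limma, adjusted p = 0.144). HF+CR 3, the bile duct library, was the 1 that reached the HF range. Map1lc3a was at 34.5, 34.2 and 27.2 RPKM in HF and 21.0, 18.6 and 17.5 RPKM in HF+CR, with no overlap and a log2 difference of -0.71 (limma, adjusted p = 0.166). Sesn1, a p53-responsive leucine sensor that restrains mTORC1, was at 2.90, 2.77 and 2.80 RPKM in HF and 4.82, 4.06 and 4.82 RPKM in HF+CR. Those groups did not overlap either, and the log2 difference was 0.54 with an interval of 0.16 to 0.92 (limma, adjusted p = 0.166). These Sesn1 values are of 1 of 2 RefSeq transcripts, which held 71.0% of the summed level. The other transcript did not rise, at 1.05 ± 0.0526 RPKM in HF and 0.984 ± 0.446 RPKM in HF+CR (SD, n = 3). Atg9a, the scramblase of the vesicles that seed the membrane, was at 16.3, 16.1 and 14.5 RPKM in HF and 22.0, 20.6 and 18.3 RPKM in HF+CR, with a difference of 0.35 (limma, adjusted p = 0.173).

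Among lysosomal genes, whether Ctsb and Ctsd were called depended on 1 library in this comparison. Ctsd was at 169 and 195 RPKM in HF+CR 1 and 2 but at 313 RPKM in HF+CR 3, against 263, 351 and 258 RPKM in HF. Lamp1 was at 299, 294 and 379.6 RPKM in HF+CR, again with HF+CR 3 highest, against 396, 434 and 381 RPKM in HF. Its groups did not overlap. With all libraries the log2 differences were -0.40 for Ctsd (limma, adjusted p = 0.362) and -0.32 for Lamp1 (limma, adjusted p = 0.210). Without HF+CR 3 limma called 2 of the 45 genes, Ctsb at -0.61 (adjusted p = 0.0370) and Ctsd at -0.66 (adjusted p = 0.0351). Leaving out both bile duct libraries, a setting chosen after seeing the data, added Lamp1 at -0.44 (limma, adjusted p = 0.0439). LF 2, which that setting also leaves out, is in neither group compared. The share of all genes called in these settings is not given here. The added calls can thus not be read as particular to lysosomal genes. Lamp2, another lysosomal membrane glycoprotein, ran the other way, with HF+CR 3 lowest at 113 RPKM against 181 and 175 RPKM, and Lipa, the lysosomal acid lipase, was at 69.0, 66.0 and 65.0 RPKM in HF+CR. The 7 lysosomal genes differed by a median of -0.27 with all libraries, 6 of 7 being below 0.

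**Figure D3:**
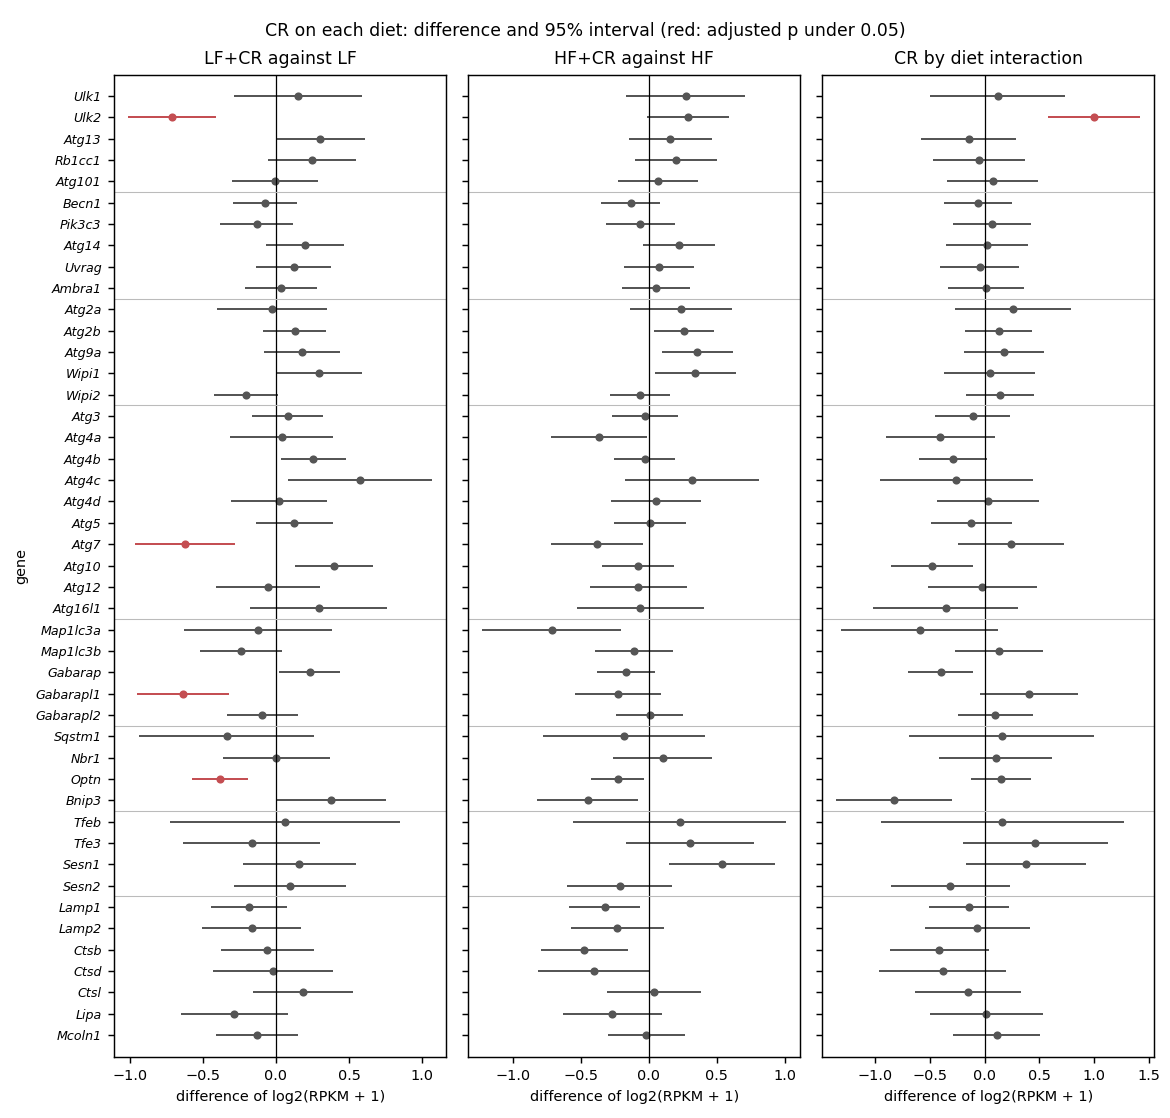
Difference of log2(RPKM + 1) with its 95% interval (horizontal axes) for each of the 45 genes (vertical axis) in LF+CR against LF, HF+CR against HF and the CR by diet interaction. Red marks an adjusted p under 0.05: Ulk2, Atg7, Gabarapl1 and Optn on the LF diet, 0 genes on the HF diet, and Ulk2 in the interaction.

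Macrophages of the liver are rich in lysosomes, so their markers are given beside these values. Of 12 macrophage markers listed 11 had a row, and these summed to 257 ± 88.1 RPKM in LF, 165 ± 29.1 RPKM in LF+CR, 366 ± 155 RPKM in HF and 255 ± 43.1 RPKM in HF+CR (SD, n = 3). The ranges were 167 to 343, 136 to 194, 244 to 540.2 and 221 to 303 RPKM, and HF+CR 3 was the highest of its group. The 7 lysosomal genes summed to 1342 ± 134, 1284 ± 51.5, 1380.3 ± 167 and 1159.97 ± 179.6 RPKM in the same 4 groups. HF+CR 3 was the highest of its group in this sum too, but within LF+CR the orders were opposite. LF+CR 1 was highest in the lysosomal sum (1330 RPKM) and lowest in the marker sum (136 RPKM). None of the 11 markers was at 0 in every library, and limma called none of them in either CR comparison, with medians of -0.46 on the LF diet and -0.24 on the HF diet. At an unadjusted p under 0.05, 3 of the 11 were lower on the LF diet, and on the HF diet 1 was higher. Over all genes the shares in either direction were 22.4% and 14%. The part of macrophages in the lysosomal values was not tested.

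**Figure D4:**
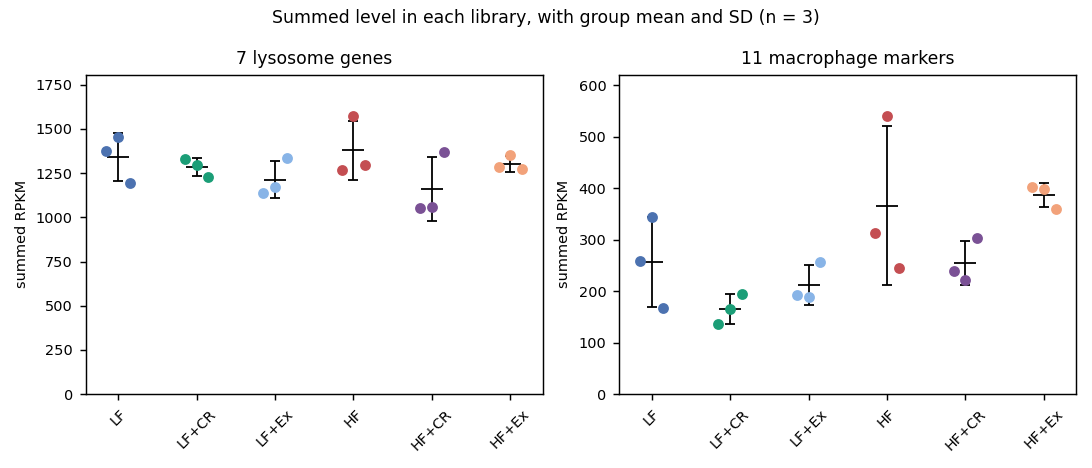
Summed RPKM (vertical axes, from 0) of the 7 lysosomal genes and of 11 macrophage markers in each library by group (horizontal axes), with the group mean and SD (n = 3). HF 2 is the highest library in both sums, at 1572 and 540.2 RPKM, and HF+CR 3 is the highest of its group in both, at 1367 and 303 RPKM. Within LF+CR the orders are opposite. LF+CR 1 is highest in the lysosomal sum (1330 RPKM) and lowest in the marker sum (136 RPKM), and LF+CR 3 is lowest (1229 RPKM) and highest (194 RPKM).

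The interaction asked whether CR differed between the diets, as the HF difference minus the LF difference. Ulk2 was the 1 gene of 45 that passed, while limma called 1.02% of all tested genes. At an unadjusted p under 0.05 there were 4, against 11.8% of all genes. On the HF diet Ulk2 was at 9.82, 10.3 and 10.8 RPKM without CR and at 15.4, 13.3 and 10.2 RPKM with it. Those groups overlap, since HF+CR 3 lies within the HF range. Group means therefore ran in opposite directions, from 13.2 ± 1.52 to 7.73 ± 1.31 RPKM under CR on the LF diet and from 10.3 ± 0.512 to 12.97 ± 2.57 RPKM on the HF diet (SD, n = 3). The interaction was 0.9996 ± 0.19 (limma, adjusted p = 0.0199). It lost the call in 7 of 27 settings, among them without the pancreas libraries (adjusted p = 0.183) and without LF+CR 1, HF 1, HF 2 or HF+CR 1 in turn (adjusted p = 0.0508 to 0.0656).

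Bnip3, a mitophagy receptor induced by low oxygen, had the next smallest p in the interaction and was not called. On the LF diet it was at 72.7, 73.9 and 95.4 RPKM without CR and at 95.8, 123 and 96.6 RPKM with it. On the HF diet it was at 82.9, 89.0 and 87.2 RPKM without CR and at 53.4, 72.9 and 64.1 RPKM with it. Every LF+CR library was above, and every HF+CR library below, the libraries without CR on the same diet. The interaction was -0.83 ± 0.24 (limma, adjusted p = 0.146). Gabarap and Atg10 came next, at -0.40 and -0.48 (limma, adjusted p = 0.220 and 0.266).

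CR averaged over both diets rests on the same libraries as the comparisons above and is not independent of them. Of the 45 genes 3 fell, Optn, Atg7 and Gabarapl1, and 0 rose, against 7.18% of all genes called, 3.15% higher and 4.04% lower. At an unadjusted p under 0.05 there were 16, 8 in each direction, against 24.2% of all genes. On the HF diet Optn was at 48.1, 50.1 and 47.6 RPKM without CR and at 43.9, 40.3 and 39.8 RPKM with it. Atg7 was at 12.4, 14.2 and 11.1 RPKM without CR and at 10.7, 9.62 and 8.04 RPKM with it on that diet. Gabarapl1 was at 278, 278 and 280.0 RPKM without CR and at 242, 235 and 237 RPKM with it on that diet. On each diet all 3 genes were therefore lower in every CR library than in every library of the diet alone.

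The averaged log2 differences from limma were -0.31 ± 0.06 for Optn (adjusted p = 0.00819), -0.50 ± 0.11 for Atg7 (adjusted p = 0.0141) and -0.43 ± 0.10 for Gabarapl1 (adjusted p = 0.0202). Optn and Atg7 kept the call in all 27 settings. Gabarapl1 lost it in 3, namely without LF+CR 1, without both bile duct libraries and without the 3 pancreas libraries. The members called grew to 6 without HF+CR 3, which added Atg9a (0.30), Lamp1 (-0.31) and Ctsb (-0.34). They came to 5 with median-of-ratios scaling, which added Atg2b and Wipi1, and to 5 without LF+Ex 3, which added Atg9a and Wipi1. Over all genes the calls rose as well, from 744 to 1000 with that scaling and to 829 without LF+Ex 3. The count over all genes without HF+CR 3 is not given here. Wipi1, which reads the lipid mark on the forming membrane, had an averaged difference of 0.32 (limma, adjusted p = 0.0577) with all libraries.

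HF was compared with LF to ask what the diet alone did. None of the 45 genes was called, and limma called 0.406% of all tested genes. At an unadjusted p under 0.05 there were 6 genes, against 16.8% of all genes. The smallest p belonged to Gabarap, at 157, 177 and 171 RPKM in LF and 189, 209 and 207 RPKM in HF, with no overlap and a difference of 0.26 (limma, adjusted p = 0.193). Atg2b, a lipid transfer protein of the forming membrane, was at 3.93 ± 0.119 RPKM in LF and 3.12 ± 0.423 RPKM in HF, a difference of -0.26 (limma, adjusted p = 0.198). Atg10 differed by 0.29 (limma, adjusted p = 0.240) and Ulk2 by -0.33 (limma, adjusted p = 0.244). Groups did not overlap for 4 genes in each direction, against 7.97% of all genes higher and 10.9% lower.

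Ex was compared with no Ex on each diet, and limma called 0% of all tested genes on either, so 0 of the 45 as well. On the LF diet 2 of the 45 and on the HF diet 3 of the 45 had an unadjusted p under 0.05, against 9.12% and 3.64% of all genes. The median of the 45 on the LF diet was -0.12, but the median of all genes was -0.13, and median-of-ratios scaling brought the latter to 0.00 (0.00171). Ambra1, a Beclin 1 partner, had the smallest p there, at 6.12, 5.95 and 5.68 RPKM in LF and 4.65, 4.86 and 4.60 RPKM in LF+Ex. These groups did not overlap, as in 4 of the 45 genes lower and 0 higher in LF+Ex, against 11.4% and 0.83% of all genes. The Ambra1 difference was -0.28 (limma, adjusted p = 0.519), followed by Optn at -0.19, Tfe3 at -0.41 and Lipa at -0.31.

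On the HF diet the smallest p under Ex were those of 3 GABARAP genes. Gabarapl1 was at 206, 225 and 216 RPKM in HF+Ex, below the HF libraries at 278, 278 and 280.0 RPKM, a difference of -0.37. Gabarapl2 was at 30.4, 28.7 and 28.1 RPKM against 35.4, 38.4 and 30.9 RPKM in HF, a difference of -0.25, and Gabarap differed by -0.21. Optn came next with a difference of -0.18. None of these passed (limma, adjusted p = 1 for each), although the groups did not overlap for any of the 4. Map1lc3a had a larger difference, -0.42, and was not called either. It was at 22.1, 24.9 and 23.3 RPKM in HF+Ex, without overlap with HF. In all, 7 of the 45 genes were lower and 0 higher in HF+Ex without overlap, against 8.06% and 2.96% of all genes. Both the CR and the Ex comparison on this diet use the same HF libraries. The Ex by diet interaction called 0 of the 45 genes, and 0% of all genes, with 0 of the 45 at an unadjusted p under 0.05 against 5.07% of all genes, and the smallest p for Sesn2 at 0.51 (limma, adjusted p = 0.818).

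Tfeb and Becn1 differed in how closely the libraries of a group lay. Tfeb, the transcription factor that induces lysosomal genes, was at 4.19, 3.72 and 4.21 RPKM in LF and 4.62, 4.03 and 4.15 RPKM in LF+CR. In HF it spread from 0.683 to 4.01 RPKM and in HF+CR from 1.63 to 3.96 RPKM, so that the HF+CR interval ran from -0.55 to 1.002. These values are of 1 of 3 RefSeq transcripts of Tfeb. It held 30.5% to 100% of their summed level, depending on the library, so the spread is not that of the whole gene. Becn1 was steadier, at 23.6 ± 3.12 RPKM in LF and 22.3 ± 1.03 RPKM in LF+CR, with a CR difference of -0.07 on the LF diet and -0.13 on the HF diet. Neither was called, and this does not show that the groups were alike.

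Related genes outside the 45 were read from 6 lists: other lysosomal enzymes, other lysosomal membrane proteins, the proton pump, nutrient sensing, other receptors, and other core and fusion genes. Of 127 listed genes 123 were tested. CR on the LF diet changed 8 (6.5%), with 3 higher and 5 lower, and CR on the HF diet changed 2 (1.63%), 1 in each direction, against 6.5% and 1.4% of all genes. Averaged over the diets 3 were higher and 8 lower (8.94% in all), against 7.18% of all genes. These shares lie near those of the whole table. HF against LF and both Ex comparisons called 0 of the 123.

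Of 35 other lysosomal enzymes, limma called 6 lower (17.1%) and 0 higher under CR averaged over the diets, against 4.04% of all genes called lower. On the LF diet alone it called 1 of the 35 and on the HF diet 0. The averaged differences had a median of -0.27, against 0.01 (0.00685) for all genes. Arsa, the enzyme that removes sulfate from sulfatide, fell from 25.8 ± 5.70 to 8.46 ± 2.66 RPKM on the LF diet (SD, n = 3), a log2 difference of -1.52 (limma, adjusted p = 0.000836). On the HF diet Arsa was at 25.3 ± 2.53 RPKM without and 18.5 ± 3.18 RPKM with CR. Hexa, a hexosaminidase subunit, had an averaged difference of -0.73 (limma, adjusted p = 0.0201), Ctsz, a cysteine protease, of -0.57 (limma, adjusted p = 0.0292) and Dnase2a, the acid DNase, of -0.39 (limma, adjusted p = 0.0122). Macrophage markers moved alongside, with a median of -0.40, 5 of 11 lower and 1 higher at an unadjusted p under 0.05, and 0 called. Over all genes 24.2% had an unadjusted p under 0.05, in either direction, and 7.18% were called. The part of macrophages in this result was not tested. The averaged calls of Hexa, Ctsz and Dnase2a were lost in 5, 9 and 1 of 27 settings, each time including the one without the pancreas libraries, and that of Arsa in 0. None of the 15 proton pump subunits tested was called under CR on either diet or averaged.

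Receptors and core genes outside the 45 moved both ways. Tmem41b, an ER scramblase needed to form autophagosomes, rose from 3.01 ± 0.226 to 5.94 ± 0.252 RPKM under CR on the LF diet and from 3.88 ± 0.278 to 5.79 ± 0.360 RPKM on the HF diet (SD, n = 3). Its log2 differences were 0.79 and 0.48 (limma, adjusted p = 0.000242 and 0.0207). Retreg1, the ER-phagy receptor FAM134B, rose on the LF diet by 0.78 (limma, adjusted p = 0.0378) and, averaged over both, by 0.79 (limma, adjusted p = 0.00577). Tex264, another ER-phagy receptor, fell on both diets, with log2 differences of -0.41 and -0.48 (limma, adjusted p = 0.0300 and 0.0338). Vps41, a subunit of the complex that tethers vesicles to lysosomes, fell on the LF diet from 16.8 ± 1.12 to 10.4 ± 0.458 RPKM (limma, adjusted p = 0.00448). The LF calls of Tmem41b, Vps41 and Arsa held in every setting in which they were tested. Those of Tex264 and Retreg1 on the LF diet were lost in 7 and 9 of 27 settings, and those of Tmem41b and Tex264 on the HF diet in 7 of 26 and 9 of 27. The absence of the pancreas libraries was among the losing settings for each of these.

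Of 30 nutrient-sensing genes tested, 2 were called under CR on the LF diet (6.67%), against 6.5% of all genes. Rptor, the mTORC1 scaffold Raptor, fell by 0.48 on the log2 scale (limma, adjusted p = 0.0238), and Prkag1, a regulatory subunit of AMPK, rose by 0.30 (limma, adjusted p = 0.0482). The Prkag1 call was lost in 20 of 27 settings and the Rptor call in 5. Prkaa2, a catalytic subunit of AMPK, rose under CR averaged over the diets, by 0.33 (limma, adjusted p = 0.0271), a call lost in 7 settings. Slc36a1, a lysosomal amino acid transporter, fell on the LF diet from 7.38 ± 1.11 to 4.54 ± 0.697 RPKM, a log2 difference of -0.60 (limma, adjusted p = 0.0144) that was lost in 5 settings. It was the 1 related gene of 123 called in the CR by diet interaction (0.813%), against 1.02% of all genes.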

How the data were processed

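TopHat 1.4.1, Cufflinks 1.3.0 and the mm10 build are named in the submitters' processing notes. The authors deposited RPKM for each RefSeq transcript. The counting rule and read totals are not given in the sources used here. Per-sample files and the series table held the same 550476 values. Of 30582 RefSeq rows 30003 took a symbol from RefSeq (GRCm38.p6), 180 took one from GENCODE and 399 took none. The row with the highest mean stood for a gene. A gene was tested if 3 or more libraries reached 1 RPKM. Tests were made on log2(RPKM + 1) with limma 3.58.1 in R 4.3.3, with 1 mean per group, 12 residual degrees of freedom, a trend in the moderated variance, and Benjamini-Hochberg adjustment over all 10356 genes (two-sided, threshold 0.05). Intervals are 95%. The fit was also run on simulated data, with independent noise in every value and added differences larger than those of the members called. That run held no effect shared by the genes of a library, so it does not bear on calls that depend on 1 library.

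The 45 genes, the related lists and the marker lists were chosen with earlier results of these data known. Named genes are the members called in a comparison (where none, the 4 smallest p), 8 members reported whatever their result (Ulk1, Becn1, Map1lc3b, Sqstm1, Tfeb, Lamp1, Ctsd and Sesn1), and up to 4 called genes per related list and comparison. Bnip3, Gabarap and Atg10 in the CR by diet interaction, and genes named for their level or spread or for a call under an alternative, were singled out after their values were seen. RefSeq promoter windows were missing for 7 of the 45 genes, which were not searched. Alternatives were median-of-ratios scaling, a pseudocount of 0.1, dropping the filter or raising it to a mean of 5 RPKM, the compared groups alone, sums of all rows of a gene, a replicate block, each library left out, and the pancreas or bile duct libraries left out.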

Additional observations from a re-analysis of the deposited data

Results flagged for a closer look

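For 2 genes the CR difference itself differed between the diets by a test of the interaction. They are 1 of the 45 genes (2.22%) and 1 of 123 related genes tested (0.813%), against 1.02% of all tested genes. These shares lie near that of the whole table. Ulk2, the initiating kinase, had an interaction of 0.9996 (limma, adjusted p = 0.0199), with group means lower under CR on the LF diet and higher on the HF diet. Slc36a1, the lysosomal amino acid transporter, had an interaction of 0.82 (limma, adjusted p = 0.0441). Its levels were 7.38 ± 1.11 RPKM in LF, 4.54 ± 0.697 RPKM in LF+CR, 6.74 ± 1.03 RPKM in HF and 8.04 ± 1.17 RPKM in HF+CR (SD, n = 3). The Slc36a1 call was lost in 19 of 27 settings, with adjusted p from 0.0216 to 0.384 over them.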

How the results depend on the processing

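Of 1690 recomputed differences of single genes, 1541 kept their direction and side of the threshold, 131 lost a call, 5 gained one and 13 reversed. In LF+CR against LF the 4 members called became 0 with the compared groups alone and 1 without the pancreas libraries, and 1 to 4 with a library left out. In HF+CR against HF the 0 became 3 without the bile duct libraries and 0 to 2 with a library left out. All genes called in these settings of that comparison are not given here. CR averaged over both diets gave 5 with median-of-ratios scaling and 2 to 6 with a library left out. With that scaling all genes called for averaged CR rose from 744 to 1000. The CR by diet interaction gave 0 with median-of-ratios scaling, with the compared groups alone and without the pancreas libraries, and 0 to 1 with a library left out. The remaining 4 comparisons gave 0 in every setting. The cause was not tested. In LF+CR against LF, without the bile duct libraries, Becn1 came to 0.026, Sqstm1 to 0.0061 and Ctsd to 0.045. With a library left out the range was -0.15 to 0.026 for Becn1 (above 0 without LF 2), -0.63 to 0.0061 for Sqstm1 (above 0 without LF 2), -0.15 to 0.046 for Ctsd (above 0 without LF 1, LF 2 or LF+CR 2) and -0.031 to 0.31 for Sesn1 (below 0 without LF 3). In HF+CR against HF, Tfeb came to -0.10 (-0.095) with summed rows, to -0.0089 without the bile duct libraries, and to -0.21 to 0.58 with a library left out (below 0 without HF 3 or HF+CR 3). None of these was called. Replicate numbers did not pair the libraries. This was read from correlations between libraries of different groups, taken on each gene's deviation from its group mean. Same-numbered libraries correlated at -0.49 to 0.32, 10 of 45 pairs over 0.1, and 3 of 18 libraries correlated best with their own number. Differently numbered libraries correlated at -0.39 to 0.44. With the number as a replicate block the counts of members called were again 4, 0, 3 and 1. The pancreas and bile duct settings were chosen after seeing the data. Depth is unknown, so counting error at low levels, as for Atg4c or Sesn2, could not be given.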
